A study of Homo sapiens with 4 samples.

Results

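The 32 genes described here encode the glycolytic enzymes and their isozymes, the glucose and lactate transporters around them, the phosphofructokinase regulators, and the enzymes of the pentose phosphate pathway. They were chosen by gene name from a list, and all 32 were found among the 60651 genes of the files. The values are levels of ribosome-protected RNA fragments (footprints, the stretches of mRNA covered by a ribosome), with 1 library for each of the untreated human lines K562, THP-1, MOLM13 and HL60. K562 derives from chronic myeloid leukemia and keeps traits of the red cell lineage. THP-1 and MOLM13 derive from acute monocytic leukemia, in both cases with KMT2A rearranged, and HL60 derives from an acute myeloid leukemia of promyelocyte-like cells. Per the labels, K562 and HL60 were grown in IMDM, THP-1 in RPMI1640 with 2-mercaptoethanol and MOLM13 in DMEM. The cell line and its medium thus cannot be told apart, except between K562 and HL60, which share the medium named. Because no line had a second library, no difference has a replicate check and no p-value is given, and a fixed rule of size takes the place of a test. A footprint level rises with the amount of an mRNA and with the ribosomes on it, and these were not separated. Fewer cells that express a gene and less of its RNA per cell cannot be told apart either.

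Glycolysis splits glucose into pyruvate, and cells that convert most of that pyruvate to lactate export it with a proton. Many steps can be run by any of several isozymes, encoded by separate genes, that differ in affinity, regulation and usual tissue. The pentose phosphate pathway branches off after the hexokinase step, yields NADPH and ribose phosphate, and returns sugars to glycolysis. Leukemia cells are known for high glucose use, and mature neutrophils rely mostly on glycolysis.

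Aligned depth was 344 to 973 megabases per library, lowest in MOLM13-labelled cells and highest in HL60, which at 29 bases per footprint is 11.9 to 33.6 footprint equivalents in units of 1000000. Erythroid markers summed to 15123 scaled TPM in K562, 0 in THP-1, 27.3 in MOLM13-labelled cells and 0 in HL60, with HBG2 and ALAS2 at 0 in all lines. The 6 granulocytic markers summed to 0 in K562, 8248 in THP-1, 32.3 in MOLM13-labelled cells and 9478 in HL60. CTSG led them in THP-1 with 3548, where MPO was at 38.6, and MPO led them in HL60 with 6359. The MOLM13-labelled library went against its label. Its deposited file carries another name, the 7 monocytic markers summed to 32.4, against 4118 in THP-1, and CD3D, a T cell receptor subunit, stood at 891, against 3.37 to 49.0 in the other lines. FLT3 and MEIS1 were listed at 0 in it, but stood at only 1.83 and 0.304 in THP-1. HOXA9 in it was 29.5, against 15.7 in THP-1. Its values are therefore given as those of the MOLM13-labelled library. On members whose last exon is mostly untranslated, signal was lower there than on inner coding exons. Members were counted in a library if their last exon was at least 80% untranslated. They also needed at least 3 inner coding exons, with a mean coverage of at least 5 over them in that library. The last exon had lower coverage than the inner coding exons in 14 of 14 such members in K562 and 11 of 11 in THP-1. The same held for 13 of 13 in MOLM13-labelled cells and 14 of 14 in HL60.

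Levels are scaled TPM, the deposited TPM (a level per transcript length within a library) summed over a gene's transcripts and divided by 1 factor per library. HL60 had the most footprint signal on the pathway. The 32 members together held 3.60% of the TPM of nuclear protein-coding genes in HL60, against 2.33% in K562, 1.89% in THP-1 and 2.09% in MOLM13-labelled cells. Of aligned bases, which are not divided by length, they held 3.71% in HL60 and 2.16%, 1.80% and 2.04% in the other 3 in the same order. HL60 had the highest level of 15 of the 32 members, THP-1 of 7, K562 of 6 and the MOLM13-labelled library of 4. Of the 11810 protein-coding genes that reach a scaled TPM of 1 somewhere, 19.4% were highest in HL60, 27.8% in THP-1, 23.1% in K562 and 29.7% in MOLM13-labelled cells. Over the 31 members that reach a scaled TPM of 1 somewhere, the median log2(scaled TPM + 1) was 0.87 above the mean of the other 3 lines in HL60, with 23 of 31 above 0. The same median over the 11810 protein-coding genes was -0.21 in HL60, with 41.8% above 0. In K562, THP-1 and the MOLM13-labelled library, the members' medians were -0.05, -0.24 and -0.20, beside -0.10, 0.05 and 0.12 over all genes. The members' median in HL60 was 0.77 when genes listed at 0 in any line were left out, and 0.65 without the MOLM13-labelled library.

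**Figure D1:**
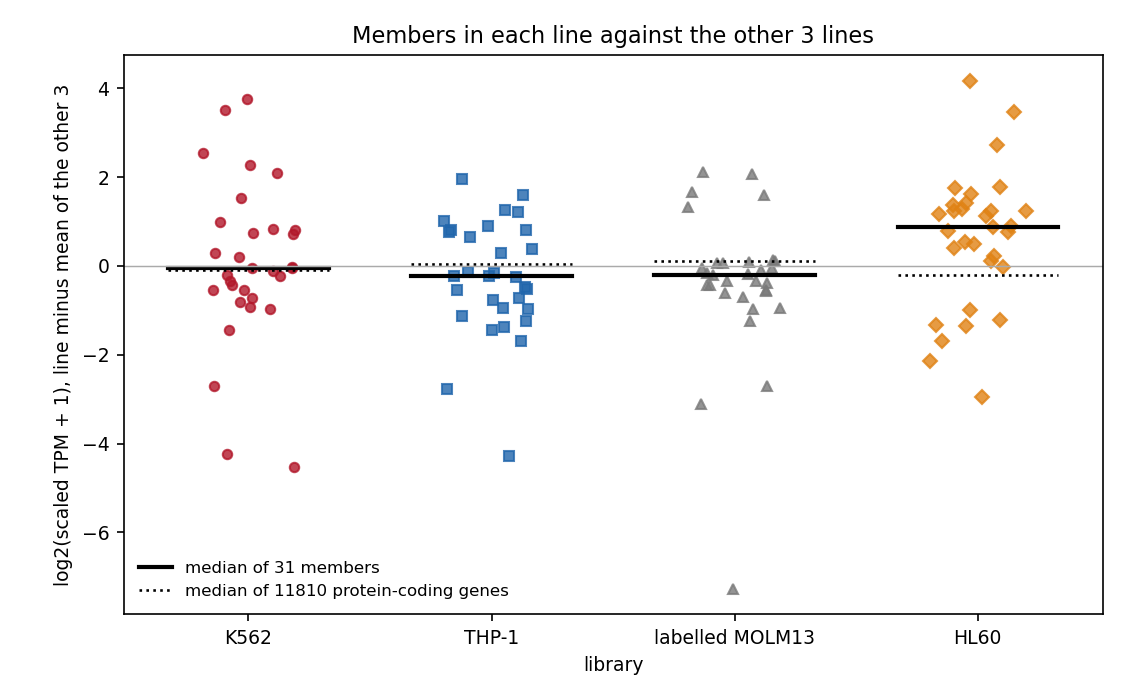
Log2(scaled TPM + 1) of each member in a line minus the mean of the other 3 lines, 1 point per member, for the 31 members that reach a scaled TPM of 1 in some library. Thick bars are the members' medians and dotted bars the medians of 11810 protein-coding genes; the members' median in HL60 is 0.87, and it lies between -0.24 and -0.05 in the other 3 libraries.

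The most abundant members were the same few enzymes in every line. ENO1, the main enolase, was the highest member in K562, in MOLM13-labelled cells and in HL60, and the next after ALDOA in THP-1. In HL60 it reached 5339.5 scaled TPM, rank 3 of all nuclear protein-coding genes. ENO1, LDHB, GAPDH, ALDOA, LDHA, PKM and TALDO1 were among the 8 highest members in every line. GPI took the place of PGD among the 8 only in HL60.

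By the rule of size, few members stood apart. The rule calls a member high where log2(scaled TPM + 1) exceeds that of the next line by 2 or more, and low where it falls short of the next line by 2 or more. The higher levels must rest on at least 600 aligned bases. High calls were PFKFB2 in K562 (1 of 32, beside 1.04% of 19893 nuclear protein-coding genes) and HK3 in HL60 (1 of 32, beside 0.880%), and there were 0 in THP-1 (1.99%) and 0 in MOLM13-labelled cells (1.15%). Low calls were SLC16A3 and RPIA in K562 (2 of 32, beside 2.17%), SLC2A3 in THP-1 (1 of 32, beside 0.266%), ALDOC and TPI1 in MOLM13-labelled cells (2 of 32, beside 0.880%) and 0 in HL60 (0.799%). The counts are 0 to 2 members each, too few to set their shares against those of all genes. All of these but SLC16A3 involve a line in which the gene is listed at 0, a value that can be a failed estimate in these files.

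At a log2 distance of 1, HL60 had 4 high members, HK2, HK3, ENO1 and LDHA, beside 2.62% of genes, and 2 low ones, HK1 and ENO2, beside 3.33%. K562 had 3 high members, HK1, SLC2A3 and PFKFB2, beside 3.24%, and 2 low ones, SLC16A3 and RPIA, beside 4.54%. The MOLM13-labelled library had 1 high member, PFKP, beside 3.98%, and 2 low ones, ALDOC and TPI1, beside 2.03%. THP-1 had 0 high members, beside 5.24%, and 2 low ones, PFKM and SLC2A3, beside 1.18%. Between pairs of libraries, 6 members were at least 2 log2 units apart between K562 and THP-1 (background 11.9%), 7 between K562 and the MOLM13-labelled library (8.64%) and 6 between K562 and HL60 (11.6%). There were 7 between THP-1 and the MOLM13-labelled library (10.6%), 5 between THP-1 and HL60 (6.55%) and 7 between the MOLM13-labelled library and HL60 (10.7%). These counts are 5 to 7 of 32 members in each pair. The backgrounds here and above are shares of all 19893 nuclear protein-coding genes. Of these, 11810 reach a scaled TPM of 1 in some library, whereas 31 of the 32 members do. Genes with little or no signal lower the backgrounds, so a member share above them is not read as an excess.

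**Figure D2:**
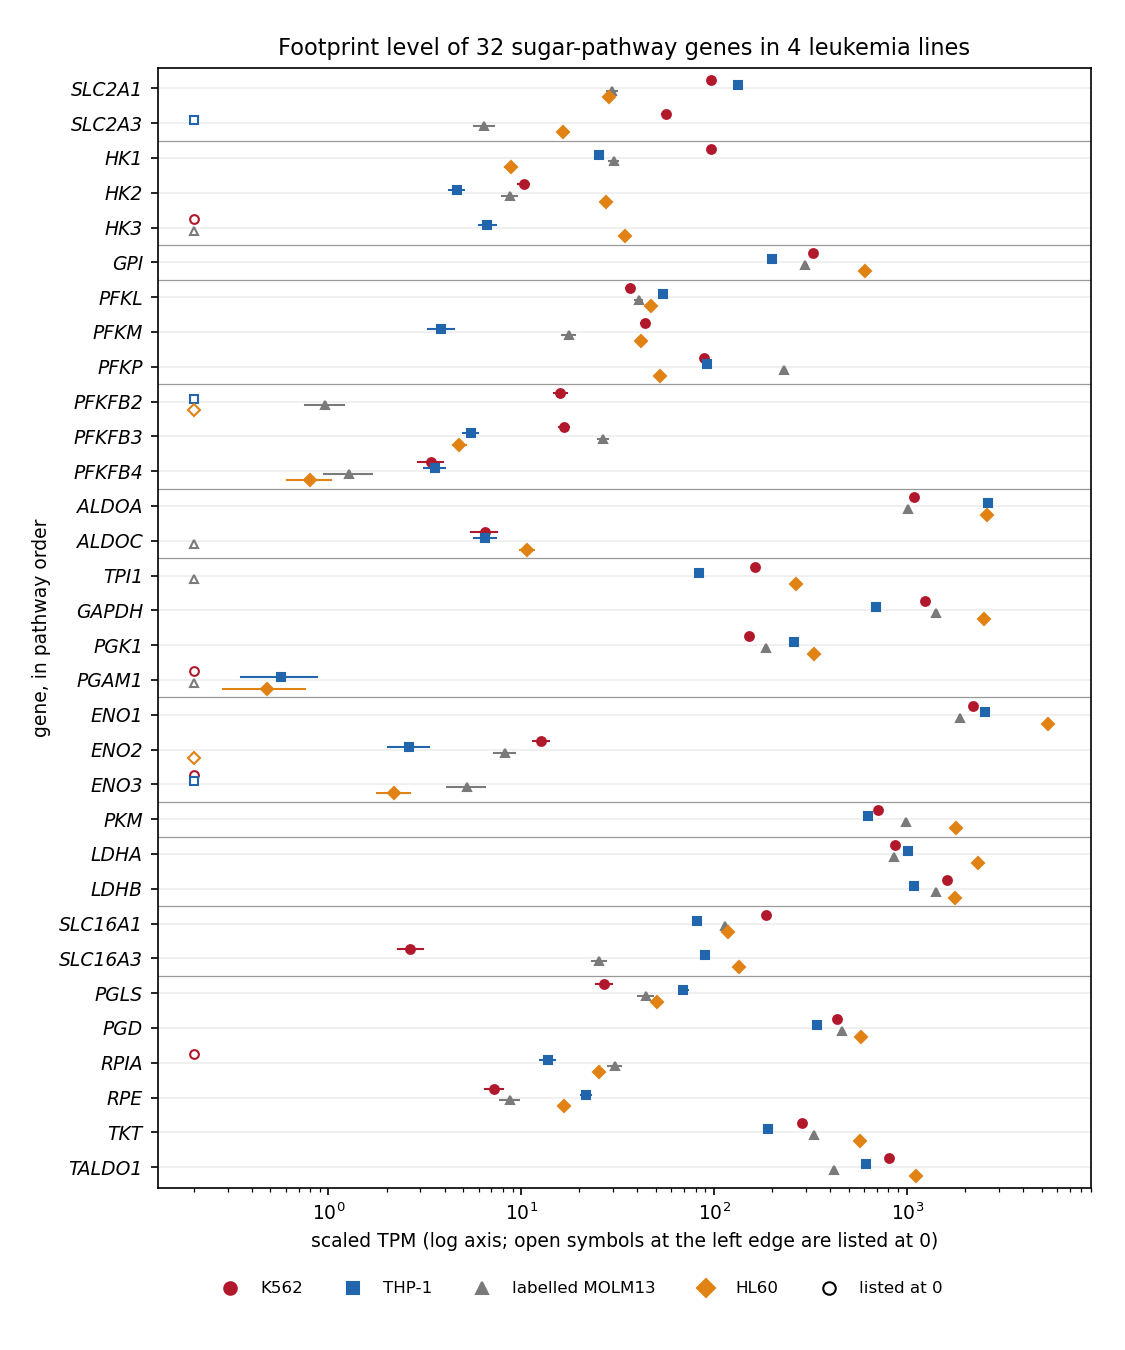
Scaled TPM of the 32 members in pathway order, with transporters and isozymes of a step between grey lines and 1 symbol per library. Bars are exact 95% Poisson intervals from footprint equivalents, which cover counting error only, and open symbols mark genes listed at 0, such as TPI1 in MOLM13-labelled cells. HL60 has the rightmost symbol for 15 of 32 genes.

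Glucose enters blood cells mainly through SLC2A1 (GLUT1), a transporter of most proliferating cells, and SLC2A3 (GLUT3), a transporter of higher affinity. SLC2A1 had 96.4 scaled TPM in K562, 133 in THP-1, 29.6 in MOLM13-labelled cells and 28.3 in HL60. SLC2A3 had 56.3 in K562, was listed at 0 in THP-1, and had 6.38 in MOLM13-labelled cells and 16.5 in HL60. SLC2A1 was the higher transporter in all 4 libraries, with 63.2% of their joint TPM in K562, 100% in THP-1, 82.3% in MOLM13-labelled cells and 63.2% in HL60. The levels of SLC2A1 in HL60 and in MOLM13-labelled cells had overlapping 95% intervals (27.2 to 29.5 and 27.8 to 31.4). HL60 thus had the most signal on the enzymes but not on glucose transport.

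Hexokinase traps glucose in the cell as glucose 6-phosphate, and the leading form differed between lines. HK1, the form of most tissues, which docks on mitochondria, had 96.3 in K562 (95% Poisson interval 93.6 to 99.1), 25.3 in THP-1, 30.2 in MOLM13-labelled cells and 8.80 in HL60. HK2, the insulin-responsive form that many tumors use, had 10.3 in K562, 4.61 in THP-1, 8.68 in MOLM13-labelled cells and 27.6 in HL60 (26.8 to 28.4). HK3, a form found mostly in myeloid cells, had 34.5 in HL60 (33.3 to 35.7) and 6.66 in THP-1, and was listed at 0 in K562 and in MOLM13-labelled cells. Signal on HK3 was thus listed only in HL60 and THP-1, the lines with granulocytic marker sums of 9478 and 8248. The monocytic markers summed to 745 in HL60 and 4118 in THP-1, against 44.5 in K562 and 32.4 in MOLM13-labelled cells. Both lists, like HK3, were higher in HL60 and THP-1 than in the other pair, but HK3 was higher in HL60 than in THP-1 where 4 of the 6 granulocytic markers and the monocytic sum were lower. Their part in the result was not tested. Of the summed TPM of HK1, HK2 and HK3, HK1 made up 90.4% in K562 (89.7 to 91.0), 69.2% in THP-1 (67.4 to 70.9), 77.7% in MOLM13-labelled cells (75.9 to 79.4) and 12.4% in HL60 (11.7 to 13.1). In HL60, HK3 made up 48.7% and HK2 38.9%. These shares leave out HKDC1 and ADPGK, which are not members. ADPGK had 19.7 in K562, 88.6 in THP-1, 18.6 in MOLM13-labelled cells and 60.7 in HL60.

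Which of HK2 and HK3 led in HL60 depended on the measure. TPM depends on which annotated transcripts the authors' program gave the reads to, so a second measure was added after the values were seen: the coding density, aligned bases on the coding bases of 1 reference transcript divided by its coding length, not scaled for depth. By coding density HK2 led in HL60 with 51.5%, HK3 had 36.7% and HK1 11.8%. HK1 led by coding density in K562 with 82.3%, in THP-1 with 70.0% and in MOLM13-labelled cells with 73.8%. The low share of HK1 in HL60 was therefore found with both measures, at 12.4% and 11.8%.

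**Figure D3:**
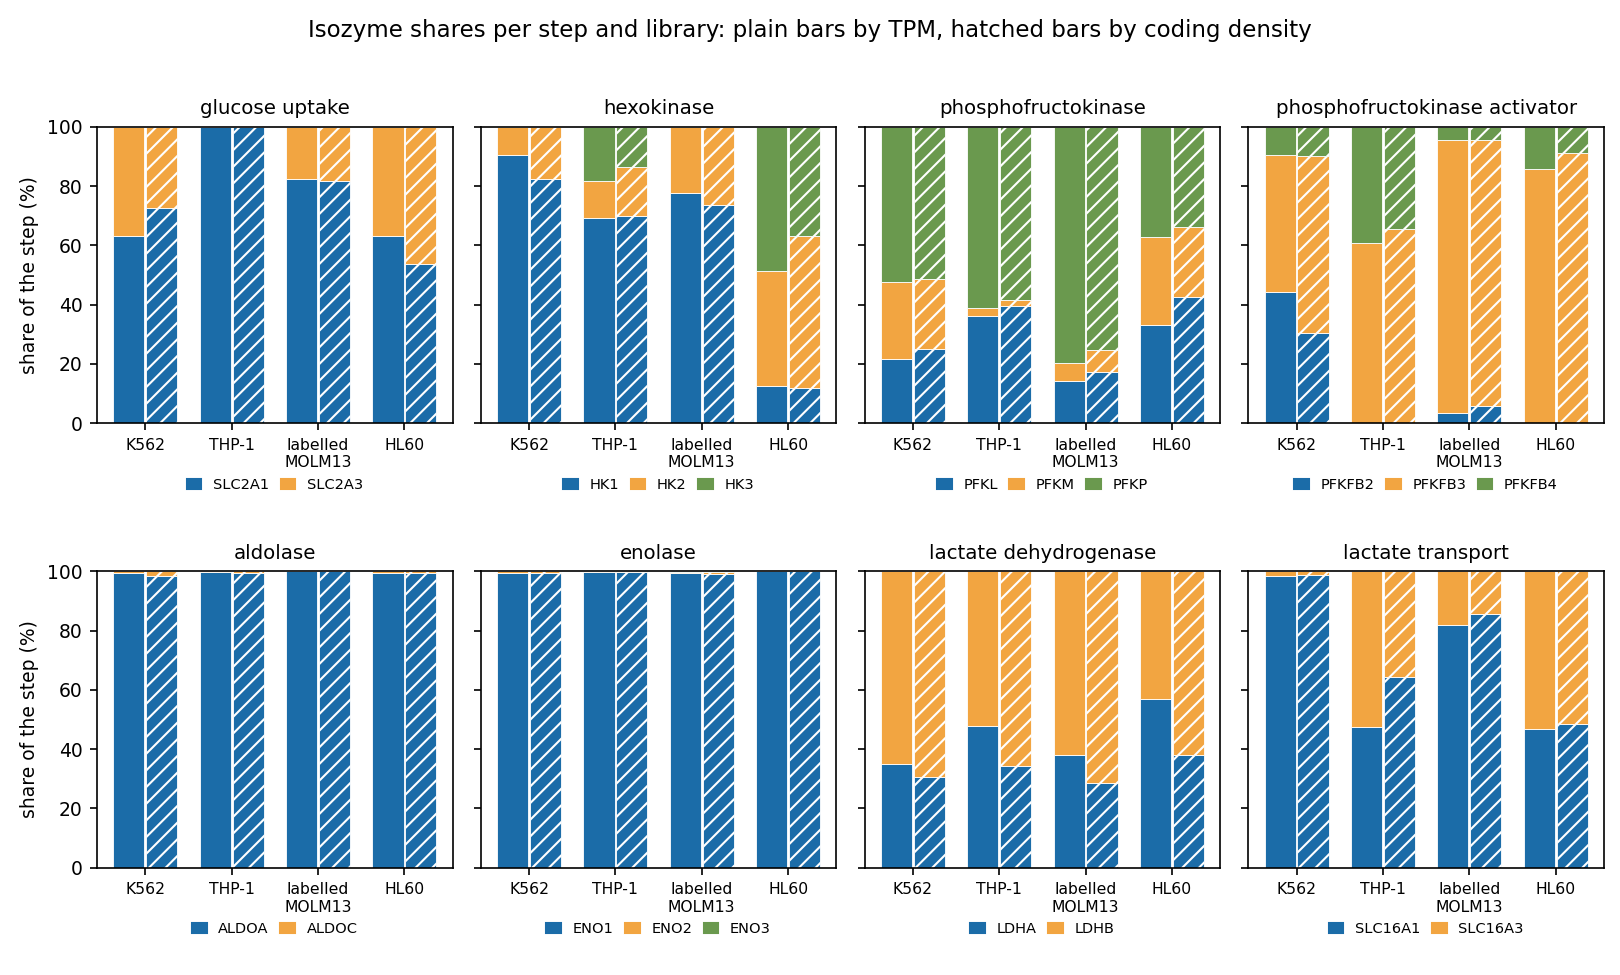
Share of each isozyme in its step and library, in percent, stacked to 100, by deposited TPM (plain bars) and by coding density (hatched bars). Hexokinase in HL60 has the smallest HK1 share, 12.4% by TPM and 11.8% by coding density, and aldolase and enolase are nearly all ALDOA and ENO1.

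HK1 also differed between lines in where its transcript starts. The gene lies at chr10:69269984-69401884 (hg38, plus strand) and has a red cell type first exon at chr10:69315785-69316014 and, further downstream, the first exon of the common transcript at chr10:69318847-69319010. The red cell type exon had a mean coverage of 87.0 in K562, which is 690 footprint equivalents (639 to 743), and was listed at 0 in THP-1, in MOLM13-labelled cells and in HL60. The common exon had a coverage of 10.3 in K562, 50.4 in THP-1, 0 in MOLM13-labelled cells and 21.3 in HL60. The red cell type exon thus held 89.4% of the coverage of both exons in K562 (86.6 to 91.9, exact binomial). By whole transcripts the share was smaller, with a deposited TPM of 63.0 on the red cell type transcript and 17.6 on the common one. The inner coding exons of HK1 had a mean coverage of 41.3 in K562, below that of the red cell type exon. The exon share therefore need not equal the share of transcripts. K562 was the line with the erythroid marker sum of 15123, and the part of that in the result was not tested. In the MOLM13-labelled library the whole HK1 level was given to a transcript with another first exon, which was itself at 0, so the start in that library is not known. An exon that belongs to 1 transcript is listed at 0 wherever that transcript is, so a 0 here does not show that no footprint fell on it.

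The coding parts of both first exons are shown because they are what differs between the HK1 forms: the common form begins with the stretch that binds the mitochondrial outer membrane, and the red cell form lacks it. Both are read from GENCODE release 29 transcripts on hg38, plus strand, 5′ to 3′, with the start codon in capitals.
HK1 red cell type first coding exon (chr10:69315955-69316014): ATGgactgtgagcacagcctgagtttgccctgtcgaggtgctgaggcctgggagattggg
HK1 common first coding exon (chr10:69318948-69319010): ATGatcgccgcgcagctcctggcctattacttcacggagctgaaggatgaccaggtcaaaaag
The coding part is 60 bases in the red cell type exon and 63 bases in the common exon. The promoter window of the red cell type exon, from 250 bases before to 50 after the RefSeq start (GRCh38.p14, chr10:69315519-69315818, plus strand), is shown because this first exon was listed above 0 in K562 alone. Capitals mark matches to GATA on either strand.
HK1 promoter of the red cell type exon: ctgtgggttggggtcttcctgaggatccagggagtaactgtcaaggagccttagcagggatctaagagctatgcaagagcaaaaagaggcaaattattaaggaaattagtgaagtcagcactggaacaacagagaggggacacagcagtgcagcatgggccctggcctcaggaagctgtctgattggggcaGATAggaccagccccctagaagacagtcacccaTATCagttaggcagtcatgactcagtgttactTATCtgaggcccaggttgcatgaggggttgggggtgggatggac
The window holds 3 matches to GATA, and 9.88% of 34796 RefSeq promoter windows of the same length hold 3 or more. It holds 2 matches to CACCC, a motif found at least once in 59.8% of windows, and 0 matches to CACGTG (7.20% of windows) and GGGCGG (44.9% of windows). These counts describe letters in a window and were not set against any binding data. Over the promoters of the 29 members matched in the RefSeq table, CACGTG was found in 6 of 55 windows (10.9%, beside 7.20% of all windows). These are the letters of the E-box that MYC can bind. The windows were 1 or more each of ALDOA, ALDOC, GAPDH, HK2, LDHA and PFKFB3. In the same 55 windows GGGCGG was found in 69.1% (44.9% of all windows), CACCC in 74.5% (59.8%) and GATA in 40% (49.8%).

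**Figure D4:**
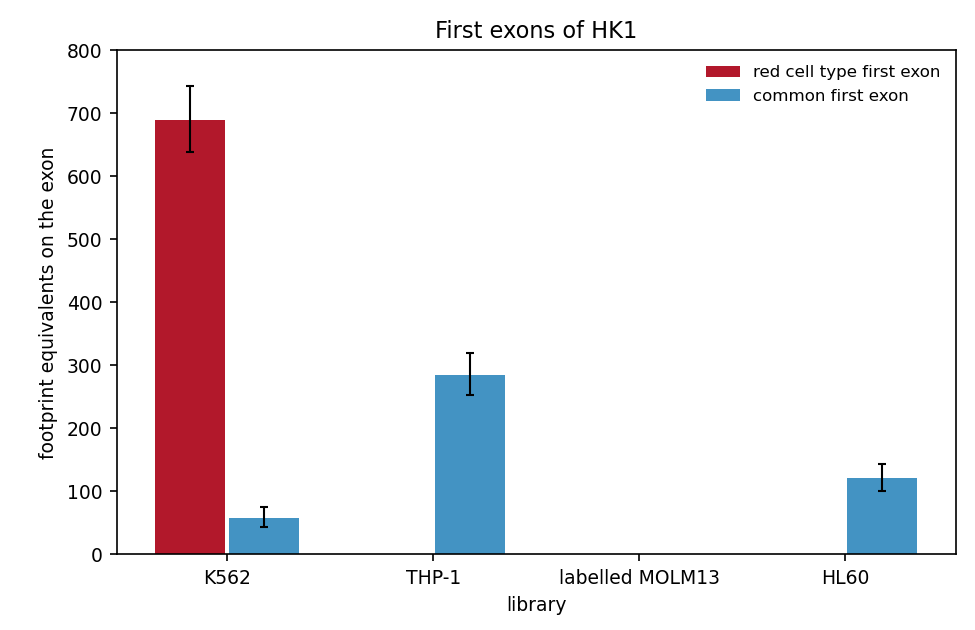
Footprint equivalents on the red cell type and the common first exon of HK1 in the 4 libraries, with exact 95% Poisson intervals for values above 0. In K562 the red cell type exon has 690 equivalents and the common exon 58.1, and the red cell type exon is listed at 0 in the other 3.

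GPI, which turns glucose 6-phosphate into fructose 6-phosphate, had 607 in HL60, 325 in K562, 199 in THP-1 and 297 in MOLM13-labelled cells. Phosphofructokinase then commits the sugar to glycolysis. PFKL, the liver form, varied least of its isozymes, with 36.6 in K562, 54.2 in THP-1, 40.6 in MOLM13-labelled cells and 46.8 in HL60. PFKM, the muscle form, had 3.85 in THP-1 (3.30 to 4.46), against 43.9 in K562, 17.6 in MOLM13-labelled cells and 41.7 in HL60. PFKM in THP-1 fell short of the next line by just under the 2 log2 units of a call. PFKP, the platelet form, had 230.0 in MOLM13-labelled cells, 2.51 times the next line, and 88.8 in K562, 91.8 in THP-1 and 52.5 in HL60. PFKP led the step by TPM in all 4 libraries, with 52.5% in K562, 61.3% in THP-1, 79.8% in MOLM13-labelled cells and 37.2% in HL60. By coding density PFKL led in HL60 with 42.6%, against 33.9% for PFKP and 23.5% for PFKM, and PFKP led in the other 3.

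The PFKFB enzymes make and break fructose 2,6-bisphosphate, the activator of phosphofructokinase. They were low next to the enzymes of the pathway itself, and the set was different in K562. PFKFB2, the heart form, had 15.9 in K562 (14.7 to 17.2) and 0.961 in MOLM13-labelled cells (0.757 to 1.20), with THP-1 and HL60 listed at 0. PFKFB3, an inducible form with strong kinase activity, had 16.6 in K562, 5.48 in THP-1, 26.6 in MOLM13-labelled cells and 4.76 in HL60. PFKFB4, the testis form, had 3.40 in K562, 3.55 in THP-1, 1.28 in MOLM13-labelled cells and 0.801 in HL60. PFKFB2 and PFKFB3 had 44.4% (42.0 to 46.7) and 46.2% (43.9 to 48.4) of the step in K562 by TPM, but 30.5% and 59.5% by coding density, so PFKFB3 led more clearly there by the second measure. By TPM, PFKFB3 led with 60.7% in THP-1, 92.2% in MOLM13-labelled cells and 85.6% in HL60. HL60, the highest line for 15 members, had the lowest levels of PFKFB3 and PFKFB4.

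Aldolase and enolase were each almost 1 gene. ALDOA, the form of muscle and most cells, had 1089.8 in K562, 2636 in THP-1, 1006 in MOLM13-labelled cells and 2606 in HL60. ALDOC, the brain form, had 6.46 in K562, 6.47 in THP-1 and 10.7 in HL60, and was listed at 0 in MOLM13-labelled cells. ALDOA thus held 99.4% to 100% of the step. THP-1 and HL60 stood together above the other pair for ALDOA, a fold of 1.01 apart from each other. ENO1 had 5339.5 in HL60, 1.07 log2 units above the next line, against 2186 in K562, 2541 in THP-1 and 1889 in MOLM13-labelled cells. ENO2, the neuronal form, had 12.7 in K562, 2.61 in THP-1 and 8.21 in MOLM13-labelled cells, and was listed at 0 in HL60. ENO3, the muscle form, had 5.21 in MOLM13-labelled cells and 2.18 in HL60, and was listed at 0 in K562 and THP-1. ENO1 held 99.3% to 100% of the enolase TPM.

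Of the enzymes between aldolase and enolase, TPI1, which interconverts the triose phosphates, had 163 in K562, 83.4 in THP-1 and 264 in HL60, and was listed at 0 in MOLM13-labelled cells. The 4 processed copies of TPI1 elsewhere in the genome held all of the footprint equivalents of the group in MOLM13-labelled cells, 5.80% in K562, 1.21% in THP-1 and 1.85% in HL60. A member listed at 0 leaves the whole group to its copies by construction. In scaled TPM these copies had 15.6 in MOLM13-labelled cells, 18.4 in K562, 1.41 in THP-1 and 10.9 in HL60. USP5, 487 bases from TPI1, had 75.2 in MOLM13-labelled cells and 30.7 to 65.7 in the other 3. It was picked as the nearest protein-coding gene with signal in every library, so its level gives no information on TPI1. PGAM1, the phosphoglycerate mutase of most cells, was listed at 0 in K562 and in MOLM13-labelled cells and had 0.570 in THP-1 and 0.478 in HL60. Its 12 copies held 100% of the group's equivalents in K562, 80.4% in THP-1, 100% in MOLM13-labelled cells and 94.1% in HL60. In scaled TPM these copies had only 4.47 in K562, 6.09 in THP-1, 4.79 in MOLM13-labelled cells and 13.1 in HL60. Whether footprints of TPI1 or PGAM1 were given to their copies was not tested. Every glycolytic cell needs TPI1 and a mutase, so neither 0 is read here as lack of expression. GAPDH, the dehydrogenase that yields NADH, had 2505 in HL60, 1234 in K562, 689.6 in THP-1 and 1414 in MOLM13-labelled cells. Its 63 copies took 16.6% of the group's equivalents in HL60, 5.89% in K562, 6.79% in THP-1 and 11.03% in MOLM13-labelled cells. How far the copies change the level of GAPDH itself was not tested, and these shares do not bound it. PGK1, which makes the first ATP of the pathway, had 330.2 in HL60, 152 in K562, 258 in THP-1 and 185 in MOLM13-labelled cells.

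PKM makes pyruvate and a further ATP, and its level was 1782 in HL60, against 703 in K562, 626 in THP-1 and 989 in MOLM13-labelled cells. The gene makes PKM1 or PKM2 by including 1 of a pair of mutually exclusive exons. PKM2, which can be turned down by phosphotyrosine signals, is the usual form of proliferating cells, and PKM1 is the form of muscle and brain. Both exons are shown because the choice between them is what the next values measure. They are read from GENCODE release 29 transcripts on hg38, chromosome 15, minus strand, 5′ to 3′, with the positions that differ in capitals.
PKM1 exon (chr15:72203022-72203188): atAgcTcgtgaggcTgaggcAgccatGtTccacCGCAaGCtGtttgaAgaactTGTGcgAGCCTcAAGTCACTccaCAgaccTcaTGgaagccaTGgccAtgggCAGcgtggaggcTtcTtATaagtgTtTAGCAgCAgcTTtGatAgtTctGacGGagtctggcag
PKM2 exon (chr15:72202454-72202620): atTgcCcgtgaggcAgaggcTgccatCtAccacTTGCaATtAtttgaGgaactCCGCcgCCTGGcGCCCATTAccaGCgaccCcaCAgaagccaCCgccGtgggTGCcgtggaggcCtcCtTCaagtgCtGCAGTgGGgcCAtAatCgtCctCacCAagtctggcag
The exons are 167 bases each, 105 positions are identical (62.9%), and the longest identical run is 10 bases, shorter than a footprint of 29.

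The PKM2 exon carried most of the signal in every library. Its mean coverage was 99.6 in K562, 151 in THP-1, 143 in MOLM13-labelled cells and 850.3 in HL60. The PKM1 exon had 1.02 in K562, 0.407 in THP-1, 23.4 in MOLM13-labelled cells and 136 in HL60. The PKM2 exon thus held 99.0% of both in K562 (97.8 to 99.6, exact binomial), 99.7% in THP-1 (99.1 to 100.0), 85.9% in MOLM13-labelled cells (83.6 to 88.1) and 86.2% in HL60 (85.3 to 87.1). The libraries fell into pairs whose intervals do not overlap, K562 with THP-1 and HL60 with the MOLM13-labelled library. HL60 and the MOLM13-labelled library had overlapping intervals. Shares from the TPM of whole transcripts were different, with 64.6% for PKM2 in K562, 99.9% in THP-1, 95.3% in MOLM13-labelled cells and 91.5% in HL60. The values above count transcripts whose exon has the same ends as the reference exon. With every transcript that overlaps either exon, a setting added after the values were seen, the PKM2 share was 96.5% in K562 (94.7 to 97.8), 99.2% in THP-1 (98.4 to 99.7), 85.8% in MOLM13-labelled cells (83.5 to 88.0) and 86.2% in HL60 (85.2 to 87.1). The pairs remained apart, but K562 and THP-1 then no longer overlapped. Summed in that way, both exons had 106 in K562, 153 in THP-1, 167 in MOLM13-labelled cells and 989 in HL60. The shared exon before them had 248, 345, 257 and 1740 in the same order. The one after them had 205, 219, 201 and 968, which was below both exons together in HL60 and above them in the other 3.

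**Figure D5:**
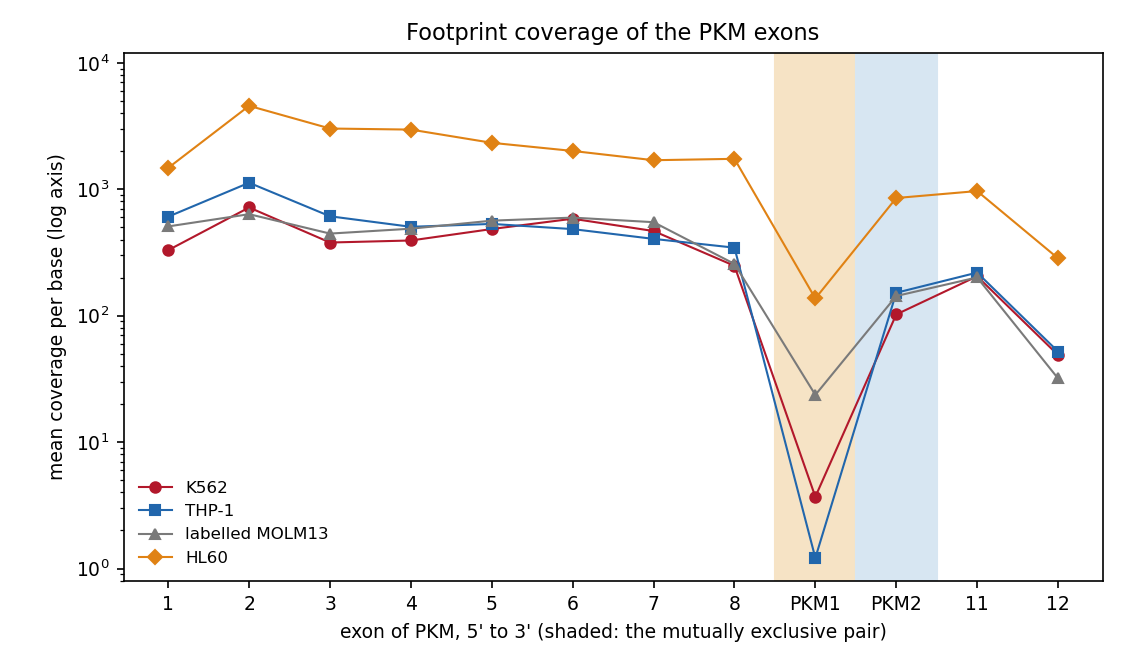
Mean footprint coverage per base (log axis, not scaled for depth) of the PKM exons from 5′ to 3′ in the 4 libraries, summed over all transcripts that overlap an exon, with the mutually exclusive pair shaded. The PKM1 exon is the lowest exon in every library, with 137 in HL60 and 1.21 in THP-1, and the PKM2 exon reaches 852 in HL60 and 152 in THP-1.

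Lactate dehydrogenase interconverts pyruvate and lactate. LDHA, the subunit usual in muscle and tumors, had 2339 in HL60, 2.33 times the next line, against 866 in K562, 1004 in THP-1 and 858 in MOLM13-labelled cells. LDHB, the heart subunit, had 1777 in HL60, 1605 in K562, 1089.9 in THP-1 and 1405 in MOLM13-labelled cells. By TPM, LDHA made up 56.8% of the step in HL60, against 35.0% in K562, 48.0% in THP-1 and 37.9% in MOLM13-labelled cells. By coding density LDHA made up 38.0% in HL60, 30.5% in K562, 34.4% in THP-1 and 28.6% in MOLM13-labelled cells, so LDHB led in all 4. HL60 had the largest LDHA share with both measures. The 6 copies of LDHA held 4.98% of the group's equivalents in HL60, 2.87% in K562, 7.18% in THP-1 and 5.35% in MOLM13-labelled cells.

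Lactate leaves through SLC16A1 (MCT1), a transporter of both directions, and SLC16A3 (MCT4), an exporter of highly glycolytic cells. SLC16A3 had 2.66 in K562 (2.29 to 3.08), against 90.0 in THP-1, 25.3 in MOLM13-labelled cells and 134 in HL60. Of the members above 0 in all 4 libraries it had the widest range, and was 50.4-fold higher in HL60 than in K562. SLC16A1 had 185 in K562, 81.2 in THP-1, 114 in MOLM13-labelled cells and 118 in HL60. SLC16A1 held 98.6% of the pair in K562 (98.4 to 98.8), 47.5% in THP-1, 81.8% in MOLM13-labelled cells and 46.8% in HL60. By coding density it held 98.7%, 64.5%, 85.5% and 48.4% in the same order. K562 had almost only SLC16A1 with both measures, and the order of the transporters in THP-1 depended on the measure. BSG, the chaperone that brings both transporters to the membrane, was present in all 4, at 429 in K562, 758 in THP-1, 318 in MOLM13-labelled cells and 712 in HL60.

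The 6 pentose phosphate enzymes together had 2347 scaled TPM in HL60, against 1556 in K562, 1249 in THP-1 and 1290.5 in MOLM13-labelled cells. PGLS, the lactonase, had 26.9 in K562, 69.0 in THP-1, 44.3 in MOLM13-labelled cells and 50.7 in HL60. PGD, the second dehydrogenase that yields NADPH, varied least of the 6, with 578 in HL60, 433 in K562, 341 in THP-1 and 462 in MOLM13-labelled cells. RPIA and RPE isomerize ribulose 5-phosphate. RPIA was listed at 0 in K562 and had 13.7 in THP-1, 30.5 in MOLM13-labelled cells and 25.4 in HL60. RPE had 7.24 in K562, 21.6 in THP-1, 8.70 in MOLM13-labelled cells and 16.6 in HL60. K562 was the lowest line for PGLS and RPE, and its 0 for RPIA can be a failed estimate. The enzymes that return sugars to glycolysis were abundant. TKT, the transketolase, had 571 in HL60, 284 in K562, 191 in THP-1 and 328 in MOLM13-labelled cells. TALDO1, the transaldolase, had 1105 in HL60, 804 in K562, 613 in THP-1 and 418 in MOLM13-labelled cells.

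Across the 8 steps with more than 1 listed isozyme, the leading isozyme by TPM was the same in all 4 libraries at 5, namely SLC2A1, PFKP, PFKFB3, ALDOA and ENO1. It differed at 3, hexokinase, lactate dehydrogenase and lactate transport. By coding density it differed at 3 as well, hexokinase, phosphofructokinase and lactate transport. The differences found with both measures were that HK1 did not lead in HL60 and that SLC16A3 led lactate transport in HL60. By aligned bases not divided by length, SLC16A3 had 45.0% in HL60 and did not lead. Of the 32 leading isozymes, 1 for each step in each library, 28 were the same with both measures.

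Of 43 other genes of the pathways listed by role, 42 were found in the files, 28 reached a scaled TPM of 1 in any line and 11 were at 0 in all. In K562, 2 of the 42 were called high (beside 1.04% of all genes) and 2 low (beside 2.17%). PKLR, the pyruvate kinase of liver and red cells, had 35.2 in K562 and was listed at 0 in the other 3 libraries. PDK4, an inhibitor of pyruvate dehydrogenase, had 5.6 in K562 and 0 in the others, and PDK1 and PDK2, its relatives, were listed at 0 in K562 and had 3.8 to 6.5 and 4.8 to 12.3 in the others. In THP-1, 2 were called high (beside 1.99%). TKTL1, a transketolase relative, had 92.2, and LDHD, a D-lactate dehydrogenase, had 6.0, each listed at 0 elsewhere. The MOLM13-labelled library had 1 high call (beside 1.15%) and 1 low call (beside 0.880%). HKDC1, a further hexokinase, had 4.4 with 0 elsewhere, and GALM, which prepares galactose, was listed at 0, against 8.0 to 24.5 in the others. None of the 42 was called high (beside 0.880%) or low (beside 0.799%) in HL60.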

How the data were processed

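Footprints of 4 cell lines, 1 library each, were analysed. The submitters' processing notes name STAR 2.7.8a, Bowtie2 2.4.2, Trim Galore 0.6.6 and StringTie 2.1.5, with hg38 as the build. Per the file headers, StringTie used read 1 and GENCODE release 37, with no new transcripts and no strand option, so overlapping genes on opposite strands are not told apart. The authors deposited TPM per transcript and coverage per transcript and exon, per the file headers; TPM sums to 1000000 per library, as tested on the values.

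The members were matched by name in the files and joined by gene identifier, and TPM was summed per gene. Scaling used the median ratio over 3751 genes at a TPM of 10 or more in all 4 libraries, with factors of 0.837 in K562, 1.01 in THP-1, 1.12 in MOLM13-labelled cells and 1.05 in HL60. Footprint equivalents are aligned bases (coverage times length) divided by 29, the modal length. Poisson and binomial (Clopper-Pearson) intervals at 95% cover counting error only. Calls use a pseudocount of 1. Gene types, coding regions and exon sequences came from GENCODE release 29 on hg38, and promoters from RefSeq. Log2 differences and calls are on the log2(scaled TPM + 1) scale, which understates those of low genes. Folds and multiples are plain ratios of scaled TPM, and no fold is given against a value listed at 0. The rule of size and the intervals were tested on simulated data. Those data held counting error only, without failed estimates or uncertain transcript assignment, so the effect of these was not tested. Genes of steps with several isozymes and genes called or 2-fold apart are named with all values, as the rule for named genes states. The members, lists and rules were chosen with earlier results of these data known. Alternatives were other scalings, pseudocounts, distances, minimums and isozyme measures. Work was done with SciPy 1.17.1, pandas 2.3.3, NumPy 2.4.6, Matplotlib 3.10.9 and Python 3.11.15.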

Additional observations from a re-analysis of the deposited data

How the results depend on the processing

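No paired analysis was possible because each line has 1 library. The cause of the changes below was not tested, except where a setting drops genes or libraries by construction. Relative to their geometric mean, the scaling factors were -0.26 log2 units in K562, 0.02 in THP-1, 0.17 in MOLM13-labelled cells and 0.07 in HL60. With deposited TPM, the median of all genes against the mean of the other 3 lines was -0.39 in K562 (-0.10 with scaling). It was 0.07 in THP-1 (0.05 with scaling), 0.32 in MOLM13-labelled cells (0.12) and -0.14 in HL60 (-0.21). The members' median in HL60 minus that of all genes was 1.09, and ranged from 0.82 (without the MOLM13-labelled library) to 1.10 over 5 alternatives added after the values were seen. In K562 that difference was 0.05 and turned to -0.0049 with deposited TPM, -0.046 without the MOLM13-labelled library and -0.17 without genes listed at 0.

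Of the counts of members called high, low or apart, 34 of 43, 24 of 43 and 38 of 60 alternatives stayed within 1.5 times the value reported. With deposited TPM, 2 members were low in THP-1. With TPM rescaled over nuclear protein-coding genes, 2 were high in K562, 2 low in THP-1, 1 low in HL60, and 10 apart between K562 and HL60. With aligned bases not divided by length, 1 was low in K562 and 2 in THP-1. With a pseudocount of 0.1, 2 were low in THP-1, 1 low in HL60, and 8 apart between THP-1 and HL60. With a pseudocount of 5, 0 were high and 0 low in K562, 0 low in THP-1, 1 low in MOLM13-labelled cells and 0 high in HL60, and 3 were apart between K562 and the MOLM13-labelled library, 1 between THP-1 and the MOLM13-labelled library, 3 between THP-1 and HL60 and 4 between the MOLM13-labelled library and HL60. At a log2 distance of 1, 3 were high in K562, 2 low in THP-1, 1 high in MOLM13-labelled cells, and 4 high and 2 low in HL60. The pairs then had 14 (K562 and THP-1), 11 (K562 and the MOLM13-labelled library), 20 (K562 and HL60), 15 (THP-1 and the MOLM13-labelled library), 16 (THP-1 and HL60) and 16 (the MOLM13-labelled library and HL60) apart. At a distance of 3, 1 was low in K562, 0 in THP-1 and 1 in MOLM13-labelled cells, and 0 were high in HL60, with 3 apart between K562 and the MOLM13-labelled library, 1 between THP-1 and the MOLM13-labelled library, 2 between THP-1 and HL60 and 4 between the MOLM13-labelled library and HL60. Without genes listed at 0, 0 were high and 1 low in K562, 0 low in THP-1, 0 low in MOLM13-labelled cells and 0 high in HL60, and the pairs, in the order above, had 2, 1, 2, 2, 3 and 3 apart. Without the MOLM13-labelled library, 2 were low in THP-1.

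The steps with differing leaders numbered 5, not 3, when only transcripts with a coding region counted. That setting gave ALDOA 0% in K562, where its TPM lay on transcripts with no coding region matched in release 29, ENO1 34.6% in MOLM13-labelled cells, LDHB 44.4% in THP-1 and SLC16A3 35.1% in THP-1. By aligned bases not divided by length, HK3 had 35.6%, PFKP 32.3%, LDHA 42.7% and SLC16A3 45.0% in HL60, and SLC16A3 33.4% in THP-1, and each lost the lead. By coding density, HK3 had 36.7%, PFKP 33.9% and LDHA 38.0% in HL60 and SLC16A3 35.5% in THP-1, and each lost the lead as well. The PKM2 share from whole transcripts was 64.6% in K562, 95.3% in MOLM13-labelled cells and 91.5% in HL60. With every transcript that overlaps either exon it was 96.5% in K562, and within the counting interval of the value reported in the other 3.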
